A study of Mus musculus with 24 samples.

Results

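The 38 genes described here come from the integrated stress response, amino acid synthesis and tRNA charging. They include 5 transcription regulators around ATF4, 7 feedback regulators and stress effectors, and 2 endoplasmic reticulum (ER) stress genes. The others are 6 enzymes of serine, glycine and one-carbon metabolism, 6 other enzymes of amino acid metabolism and 12 aminoacyl-tRNA synthetases. The 38 genes were a named list, looked up by Ensembl identifier among the 43629 genes of the count table, and all 38 were found. RNA was sequenced from mouse MLLAF9 Cas9 cells, labelled as acute myeloid leukaemia (AML), in which members of the DOT1L complex were knocked out. MLL-AF9 is a fusion oncoprotein, and DOT1L is the histone H3 lysine 79 methyltransferase that such fusions draw to their targets. MLLT10 (AF10), MLLT6 (AF17) and MLLT1 (ENL) are partner proteins of DOT1L or of the fusion.

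Every group carried the MLLAF9 fusion and Cas9 and was infected with a lentiviral guide RNA, selected with puromycin and harvested on day 9 after infection, so the controls had the fusion, the nuclease, the virus and the drug too. The 8 groups of 3 libraries were a non-targeting guide, a DOT1L knockout, MLLT10 guides 1 and 2, MLLT1 guides 1 and 2, and MLLT6 guides 1 and 2. The DOT1L and non-targeting groups each carried 1 guide name in the labels, mNTG2 for the controls and DOT1L-5-1 for the knockout, so effects of the guide and of the knockout cannot be told apart in them. MLLT10 and MLLT1 were analysed as the mean of both guides, and the MLLT6 guides separately. Nothing states that the 3 libraries of a group came from separate cultures, and the spread that p-values measure may be technical. All knockouts were compared with the same 3 non-targeting libraries.

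In the integrated stress response, kinases that sense missing amino acids, unfolded protein in the ER, haem deficiency or viral RNA phosphorylate the translation factor eIF2, which slows protein synthesis as a whole while translation of Atf4 mRNA rises. ATF4 then pairs with C/EBP proteins on composite C/EBP-ATF response elements (CARE) and turns on genes for amino acid synthesis, amino acid uptake and tRNA charging, together with regulators such as CHOP, TRIB3 and GADD34 that limit the response or lead to cell death. Because ATF4 is controlled largely at translation, its mRNA level is not a measure of its protein.

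The promoters are shown first because CARE is the element on which ATF4 acts, though only some of these genes held it in their windows. RefSeq windows of 300 bases, from 250 before to 50 after the annotated start (build GRCm38.p6), matched 33 of the 38 genes. The letters TGATGNAAN, a short form of the CARE element, were searched on both strands, together with the ER stress response element, CCAAT and CCACG with 9 bases of any kind between them; matches of the 2 did not overlap. TGATGNAAN occurred in 13 of the 33 genes (39.4%) and in 1215 of all 27025 genes with a window (4.50%). The ER element occurred in Hspa5 alone of the 33 (3.03%) and in 37 of the 27025 (0.137%). Atf3, Trib3 and Pycr1 are printed as genes that hold the element and fell in the DOT1L knockout, Asns as one that holds it and did not pass the test, and Hspa5 for the ER element. Capitals mark the motif, which reads as its reverse complement in Atf3 and Trib3.
Atf3, chr1:191183284-191183583, minus strand: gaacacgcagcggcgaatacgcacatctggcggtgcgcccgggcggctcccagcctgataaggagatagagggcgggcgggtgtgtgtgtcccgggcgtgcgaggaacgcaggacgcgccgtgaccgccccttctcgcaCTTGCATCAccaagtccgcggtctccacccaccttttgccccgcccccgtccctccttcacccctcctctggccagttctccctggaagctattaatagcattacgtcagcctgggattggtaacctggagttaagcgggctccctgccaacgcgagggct
Trib3, chr2:152344011-152344310, minus strand: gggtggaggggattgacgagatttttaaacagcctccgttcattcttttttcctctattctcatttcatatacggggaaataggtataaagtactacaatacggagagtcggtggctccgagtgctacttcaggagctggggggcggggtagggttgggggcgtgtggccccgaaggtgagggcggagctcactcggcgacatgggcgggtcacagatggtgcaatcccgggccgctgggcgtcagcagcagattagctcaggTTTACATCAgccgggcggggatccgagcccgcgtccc
Pycr1, chr11:120643699-120643998, minus strand: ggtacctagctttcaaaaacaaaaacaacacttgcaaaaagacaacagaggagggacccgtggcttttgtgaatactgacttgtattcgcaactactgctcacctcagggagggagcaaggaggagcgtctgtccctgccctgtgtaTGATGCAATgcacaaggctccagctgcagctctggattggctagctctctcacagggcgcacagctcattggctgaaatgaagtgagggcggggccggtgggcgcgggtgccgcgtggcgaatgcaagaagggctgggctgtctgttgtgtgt
Asns, chr6:7693160-7693459, minus strand: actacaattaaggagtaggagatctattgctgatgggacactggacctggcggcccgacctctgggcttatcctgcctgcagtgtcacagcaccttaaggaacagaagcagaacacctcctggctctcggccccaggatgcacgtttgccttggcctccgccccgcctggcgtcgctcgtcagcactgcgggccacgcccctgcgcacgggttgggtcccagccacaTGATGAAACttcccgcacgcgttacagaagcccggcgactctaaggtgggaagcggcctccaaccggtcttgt
Hspa5, chr2:34771840-34772139, plus strand: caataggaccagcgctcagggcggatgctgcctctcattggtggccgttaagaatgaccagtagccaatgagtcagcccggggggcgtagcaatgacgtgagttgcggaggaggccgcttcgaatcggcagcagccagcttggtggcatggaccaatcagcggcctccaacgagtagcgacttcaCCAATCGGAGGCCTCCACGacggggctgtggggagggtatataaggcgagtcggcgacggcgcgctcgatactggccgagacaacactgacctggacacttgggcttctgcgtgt
In these windows the element began 111 bases before the start of Atf3, 103 before that of Pycr1 and 23 before that of Asns, and 13 bases after that of Trib3. For Atf3, that start is a RefSeq start inside the span annotated for the gene, chr1:191170296-191218039. The upstream end of that span was not searched. Read on the motif's own strand, Pycr1, Nupr1, Aars and Iars held the same letters, TGATGCAAT. Chac1, Vldlr, Tars, Yars and Herpud1 held TGATGCAAC. The other forms were TGATGCAAG in Atf3, TGATGAAAC in Asns, TGATGAAAT in Gars, TGATGTAAA in Trib3 and, as a further match in Aars, TGATGAAAA. Of the 12 genes with the element that could be tested, 3 fell and 0 rose in the DOT1L knockout and 9 were not called. Of the 19 tested genes whose window lacked these letters, 6 fell, 1 rose and 12 were not called. Over all genes tested, 10.7% fell and 11.2% rose. A match is a description of the letters and does not show that a factor bound there.

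Library totals ran from 2403044 to 7415397 counts, with 16 libraries at or below 3841063 and 8 at or above 6272904. Replicate 1 of MLLT1 guide 1 and replicate 3 of MLLT6 guide 1 stood farthest from their groups, with a root mean square deviation over all genes of 0.727 and 0.639 on the log2 scale, against 0.408 to 0.607 in the other libraries. Transcripts of the targeted genes gave a mixed check: Dot1l mRNA was lower in its knockout by edgeR's quasi-likelihood test (log2 fold change -0.71 ± 0.13, adjusted p = 0.000189), while Mllt10, Mllt6 guide 1 and Mllt6 guide 2 had values of -0.76, -0.85 and -0.96 that were not called. Mllt6 mRNA was also called lower in the DOT1L knockout (log2 fold change -0.996 ± 0.23, edgeR's adjusted p = 0.00214). Mllt1 mRNA was not lower in the libraries labelled MLLT1 (0.62, adjusted p = 0.148), so directions there refer to libraries as labelled. The summed level of 8 neutrophil genes was 1353 to 1787 CPM (counts scaled to a common library size) in the control libraries and 95820 to 109300 in the DOT1L knockout. The summed level of the erythroid genes was 67.2 to 96.3 CPM in the controls and 1.86 to 3.92 in the knockout. The 6 monocyte and macrophage genes summed to 4110 to 6406 and 5582 to 7588 CPM, with Mrc1 at 0 in both groups. The 5 mast cell and basophil genes summed to 118.5 to 151.7 and 32.8 to 47.2 CPM, and the 4 megakaryocyte genes to 8.55 to 18.96 and 18.8 to 24.1. Of the 6 T cell genes, Cd3e, Cd3g, Cd4 and Cd8a were at 0 in both groups, and the sum was 8.55 to 16.1 and 3.91 to 8.02 CPM. Of the 5 B cell genes, 4 were at 0 in both groups. In bulk RNA, fewer cells of a type and less RNA per cell cannot be told apart, and the part of these markers in the changes below was not tested.

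In the control cells, the 38 genes spanned a wide range of levels. Set per length of annotated exon, the highest was Hspa5, the ER chaperone BiP, at 289 ± 61.5 CPM per kilobase (SD, n = 3). Atf4 followed at 205 ± 109 CPM per kilobase, and its wide spread overlapped that of Hspa5 and of Psat1, the aminotransferase of serine synthesis, at 152 ± 29.97. The mitochondrial one-carbon enzymes Shmt2 (128 ± 13.8 CPM per kilobase) and Mthfd2 (77.6 ± 8.90) and asparagine synthetase, Asns (74.9 ± 7.34), also stood in the upper part of the range. The stress regulators Atf3 (4.35 ± 1.93 CPM per kilobase) and Sesn2 (1.498 ± 0.26) were near the bottom, and Cth, the cysteine-forming enzyme cystathionine gamma-lyase, was lowest of the genes detected at 0.582 ± 0.46. Vldlr, a lipoprotein receptor, and Cbs, the enzyme before Cth in transsulfuration, had no count in any of the 24 libraries, which allows at most 0.405 to 1.25 CPM depending on the library. These 2 genes did not pass the filter on low counts, which left 36 of the 38 for testing.

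**Figure D1:**
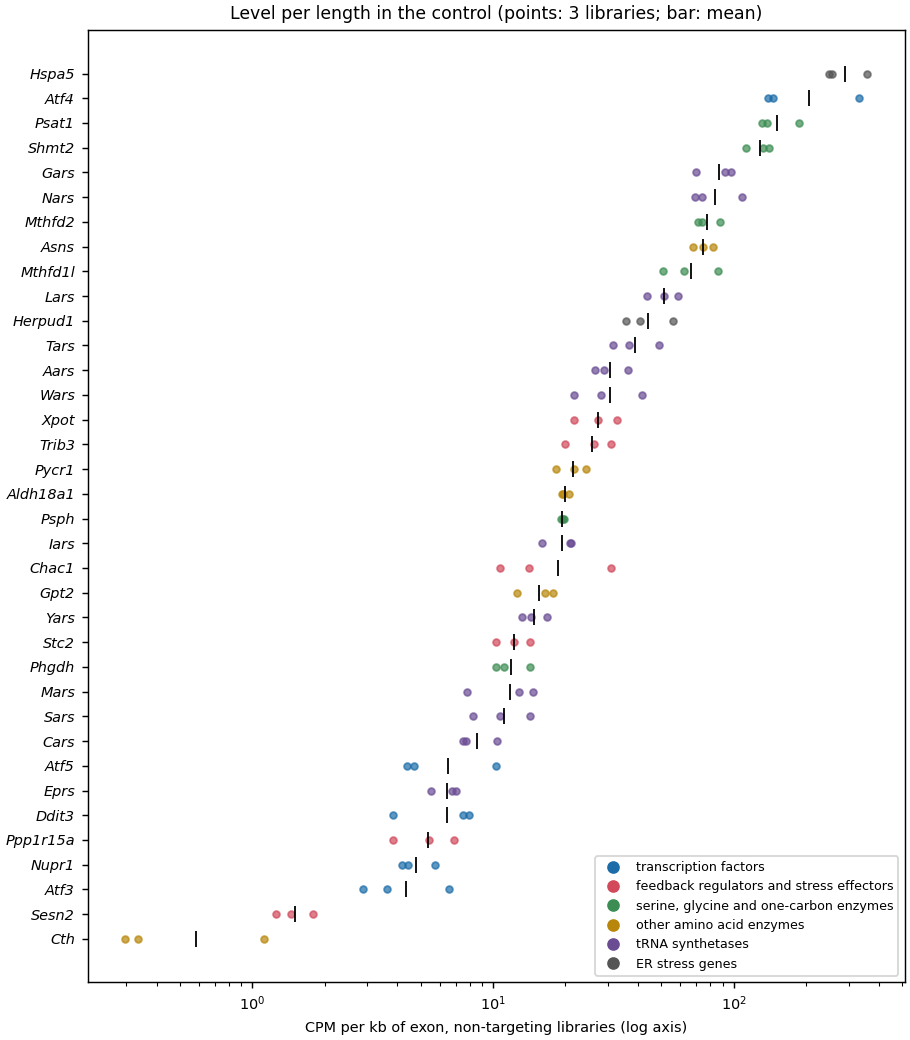
Level of the detected genes in the 3 non-targeting libraries, in CPM per kilobase of annotated exon on a logarithmic axis, with each library as a point. Hspa5, Atf4 and Psat1 lead and Cth, at 0.582 on average, is lowest.

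In the DOT1L knockout libraries, 11 of the 36 genes tested were called against the controls, of which 9 fell and 2 rose. Those that fell were the regulators Atf3, Ddit3, Trib3 and Stc2, the enzymes Psat1, Pycr1 and Gpt2, the seryl-tRNA synthetase Sars and the chaperone Hspa5. Those that rose were the transcription factor Atf5 and the enzyme Cth. The share called, 30.6%, stood beside 21.8% of all 10578 genes tested by edgeR's quasi-likelihood test at a Benjamini-Hochberg adjusted p under 0.05. By direction, 11.2% of all genes were called higher and 10.7% lower. The median log2 fold change of the 36 was -0.08, against 0.01 for all genes, with 25 below 0 and 11 above. DESeq2 also called 2 higher and 9 lower.

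Atf4 itself (ENSMUSG00000042406, chr15:80255184-80257541, mm10) did not pass the test. Its level was 779, 342 and 328 CPM in the control libraries and 551, 427 and 436 in the DOT1L knockout. The knockout values lay inside the range of the controls, where replicate 1 was the highest, and the log2 fold change was -0.03 ± 0.32 by edgeR (adjusted p = 0.962).

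Atf3, a stress-induced bZIP factor (ENSMUSG00000026628, chr1:191170296-191218039), fell most of the 36. It was at 7.83, 14.1 and 6.22 CPM in the controls and at 1.86, 1.42 and 1.604 in the DOT1L knockout. All 3 knockout libraries lay below all 21 others, and the log2 fold change was -2.53 ± 0.47 (edgeR's adjusted p = 3e-04). Atf5, a relative of ATF4 that is likewise controlled at translation (ENSMUSG00000038539, chr7:44812256-44816658), moved the other way. Control libraries held 20.6, 8.76 and 9.33 CPM and knockout libraries 31.6, 30.9 and 26.6. The groups did not overlap, and the log2 fold change was 1.21 ± 0.33 (edgeR's adjusted p = 0.00933). The call on Atf5 was lost without control replicate 2 (adjusted p = 0.0716) or replicate 3 (adjusted p = 0.0557). Atf5 shares 82 exon bases with Il4i1 and Nup62 on the opposite strand.

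Ddit3 encodes CHOP, a C/EBP-family factor linked to cell death in prolonged ER stress (ENSMUSG00000025408, chr10:127290774-127296288). Its levels were 6.60, 12.8 and 13.6 CPM in the controls and 6.69, 2.13 and 5.52 in the DOT1L knockout. The groups overlapped at control replicate 1 and knockout replicate 1, and the log2 fold change of -1.19 ± 0.41 had the highest adjusted p of the 11 calls (edgeR's adjusted p = 0.0375). It was lost without control replicate 2 (adjusted p = 0.119), control replicate 3 (0.129), knockout replicate 2 (0.169) or knockout replicate 3 (0.0693), and in a fit of these 2 groups alone (0.057). Ddit3 shares 68 exon bases with Mars on the opposite strand and 105 with a second annotated Ddit3 gene on the same strand, and the strand setting of the counting is not given in the sources used here. Nupr1, a small stress-induced chromatin protein, had a log2 fold change of -0.65 ± 0.29 and was not called (edgeR's adjusted p = 0.111).

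Among the feedback regulators, Trib3, a pseudokinase that binds ATF4 and CHOP and is induced by them (ENSMUSG00000032715, chr2:152337422-152344032), was at 65.5, 56.0 and 42.4 CPM in the controls. It was at 21.9, 18.8 and 23.9 CPM in the DOT1L knockout, below each of the 21 other libraries. The log2 fold change was -1.33 ± 0.22 (edgeR's adjusted p = 7.69e-05). Stc2, a secreted glycoprotein of the stress response (ENSMUSG00000020303, chr11:31357307-31370074), was also below all other libraries, at 30.5, 33.8 and 41.9 CPM against 63.5, 73.5 and 53.3 in the controls. Its log2 fold change was -0.83 ± 0.17 (edgeR's adjusted p = 0.000942). Ppp1r15a encodes GADD34, which brings a phosphatase back to eIF2. It held 20.2, 11.3 and 15.9 CPM in the controls and 11.5, 8.53 and 7.31 in the knockout, where groups overlapped and the test was not passed (log2 fold change -0.80 ± 0.30, edgeR's adjusted p = 0.0594). It was called without control replicate 2 (adjusted p = 0.0296), without knockout replicate 1 (0.0382), and without both libraries that stood apart (0.0429). Here and below, the libraries that stood apart belong to MLLT1 guide 1 and MLLT6 guide 1. Leaving them out changes the shared fit and removes no control or DOT1L library. Chac1, which degrades glutathione, had a log2 fold change of -0.02 ± 0.55, and Sesn2, an mTORC1 inhibitor that senses leucine, one of 0.05 ± 0.34; neither was called. Xpot, the nuclear exporter of tRNA, had 0.46 ± 0.20 and was not called (adjusted p = 0.11), but was called without both libraries that stood apart (0.0316).

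**Figure D2:**
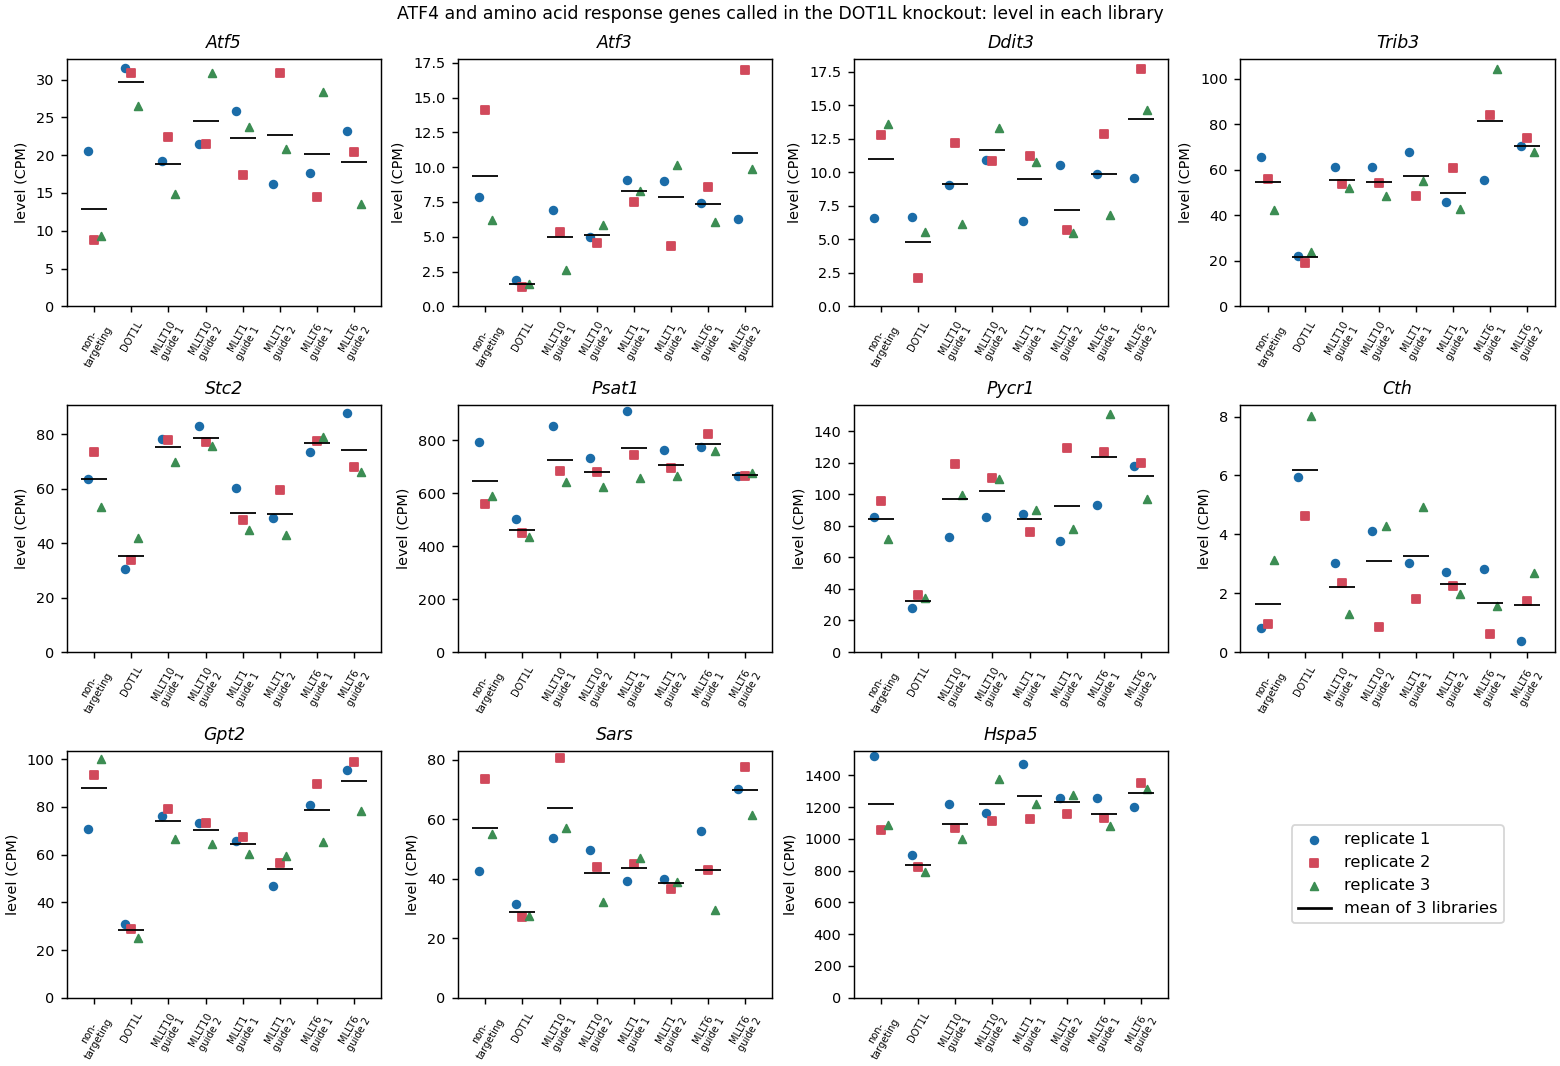
Level of the 11 genes called in the DOT1L knockout in every library of the 8 groups, in CPM, with 1 panel per gene and each library as a point. In Atf3, Trib3, Psat1, Pycr1, Gpt2, Stc2 and Hspa5 the 3 DOT1L libraries lie below all 21 others.

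In serine and one-carbon metabolism, 1 of 6 enzymes was called, against 10.7% of all genes in the same direction. Psat1 (ENSMUSG00000024640, chr19:15904678-15947337) was at 792, 558 and 588 CPM in the controls and at 500.5, 449 and 434 in the DOT1L knockout. The knockout libraries were the lowest 3 of the 24, and the log2 fold change was -0.49 ± 0.15 (edgeR's adjusted p = 0.0207). The call was lost without control replicate 1 (adjusted p = 0.136), knockout replicate 2 (0.07) or knockout replicate 3 (0.0888), and without the filter on low counts (0.0687). The other steps of the same route did not pass: Phgdh, which begins serine synthesis, had a log2 fold change of 0.27 ± 0.34 and Psph, which ends it, 0.68 ± 0.30. Shmt2, Mthfd2 and Mthfd1l, which carry the one-carbon unit through the mitochondrion, had -0.13 ± 0.18, -0.08 ± 0.18 and -0.47 ± 0.25. Psph was at 84.5, 85.1 and 82.8 CPM in the controls and at 124, 148 and 134 in the knockout. These values did not overlap, and edgeR's adjusted p was 0.113. The share of all genes without overlap of these groups is not given here. Psph was called without the filter on low counts (adjusted p = 0.0126), in a fit of the compared groups only (0.00657) and without both libraries that stood apart (0.00648). Psph shares 452 exon bases with Cct6a on the opposite strand.

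Of the 5 other amino acid enzymes tested, 2 fell and 1 rose, beside 10.7% and 11.2% of all genes. Gpt2, the mitochondrial alanine transaminase (ENSMUSG00000031700, chr8:85492576-85527560), had the lowest adjusted p of the 36. It was at 70.9, 93.2 and 99.9 CPM in the controls and at 30.8, 28.8 and 25.1 in the DOT1L knockout. It was 3.13-fold lower there, with a log2 fold change of -1.65 ± 0.17 (edgeR's adjusted p = 1.01e-07), and below all other libraries. Pycr1, which completes proline synthesis in the mitochondrion (ENSMUSG00000025140, chr11:120635712-120643769), was at 85.7, 96.0 and 71.9 CPM in the controls and at 27.9, 35.9 and 34.04 in the knockout. It too was below all other libraries, with a log2 fold change of -1.37 ± 0.23 (edgeR's adjusted p = 0.000108). Aldh18a1, which starts the route that Pycr1 ends, was at 78.7, 84.4 and 79.7 CPM in the controls and at 53.1, 57.9 and 56.0 in the knockout. Its log2 fold change of -0.54 ± 0.31 was not called (edgeR's adjusted p = 0.237). It was called in a fit of the compared groups only (adjusted p = 0.0132), and also with the libraries that stood apart both left out (0.0264).

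Asns, the textbook target of ATF4 through the element printed above (ENSMUSG00000029752, chr6:7675169-7693254), was at 204, 225 and 185 CPM in the controls and at 190.2, 195.9 and 194.1 in the DOT1L knockout. The knockout values lay inside the control range, and the log2 fold change was -0.08 ± 0.17 (edgeR's adjusted p = 0.796). Cth (ENSMUSG00000028179, chr3:157894248-157925077) rested on few counts, 2, 3 and 8 in the controls and 16, 13 and 45 in the knockout. Its levels were 0.824, 0.938 and 3.11 CPM against 5.945, 4.62 and 8.02, without overlap, and the log2 fold change was 1.96 ± 0.65 (edgeR's adjusted p = 0.0322). The call was lost without control replicate 1 (adjusted p = 0.111), control replicate 2 (0.148), knockout replicate 1 (0.057) or knockout replicate 3 (0.13).

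Of the 12 tRNA synthetases, which charge tRNAs with their amino acids, 1 fell and 0 rose, with a median log2 fold change of -0.07. Among all genes tested, 10.7% fell and 11.2% rose. Sars, for serine (ENSMUSG00000068739, chr3:108424865-108445209), was at 42.5, 73.5 and 55.2 CPM in the controls and at 31.6, 27.02 and 27.4 in the DOT1L knockout. The groups did not overlap, and the log2 fold change was -0.9995 ± 0.23 (edgeR's adjusted p = 0.00256). The alanyl, glycyl, asparaginyl and isoleucyl enzymes, Aars, Gars, Nars and Iars, had log2 fold changes of 0.02 ± 0.15, 0.04 ± 0.16, -0.01 ± 0.22 and -0.06 ± 0.16. Exons of Aars share 1326 bases with Exosc6 on the same strand, a gene that has no row of its own here. The threonyl enzyme Tars had 0.45 ± 0.17 and was not called (edgeR's adjusted p = 0.0646). Without control replicate 1, Tars was called higher (0.63, adjusted p = 0.0135) and the methionyl enzyme Mars lower (-0.56, adjusted p = 0.0371). Of the 2 ER genes, Hspa5 (ENSMUSG00000026864, chr2:34771970-34777547) fell, from 1521, 1054 and 1088 CPM in the controls to 900.3, 822 and 794 in the knockout. These were the lowest 3 of the 24 libraries, the log2 fold change was -0.54 ± 0.15 (edgeR's adjusted p = 0.00936), and the call was lost without control replicate 1 (adjusted p = 0.0737). Herpud1, part of the machinery that degrades misfolded ER proteins, had 0.23 ± 0.18 and was not called (edgeR's adjusted p = 0.41).

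**Figure D3:**
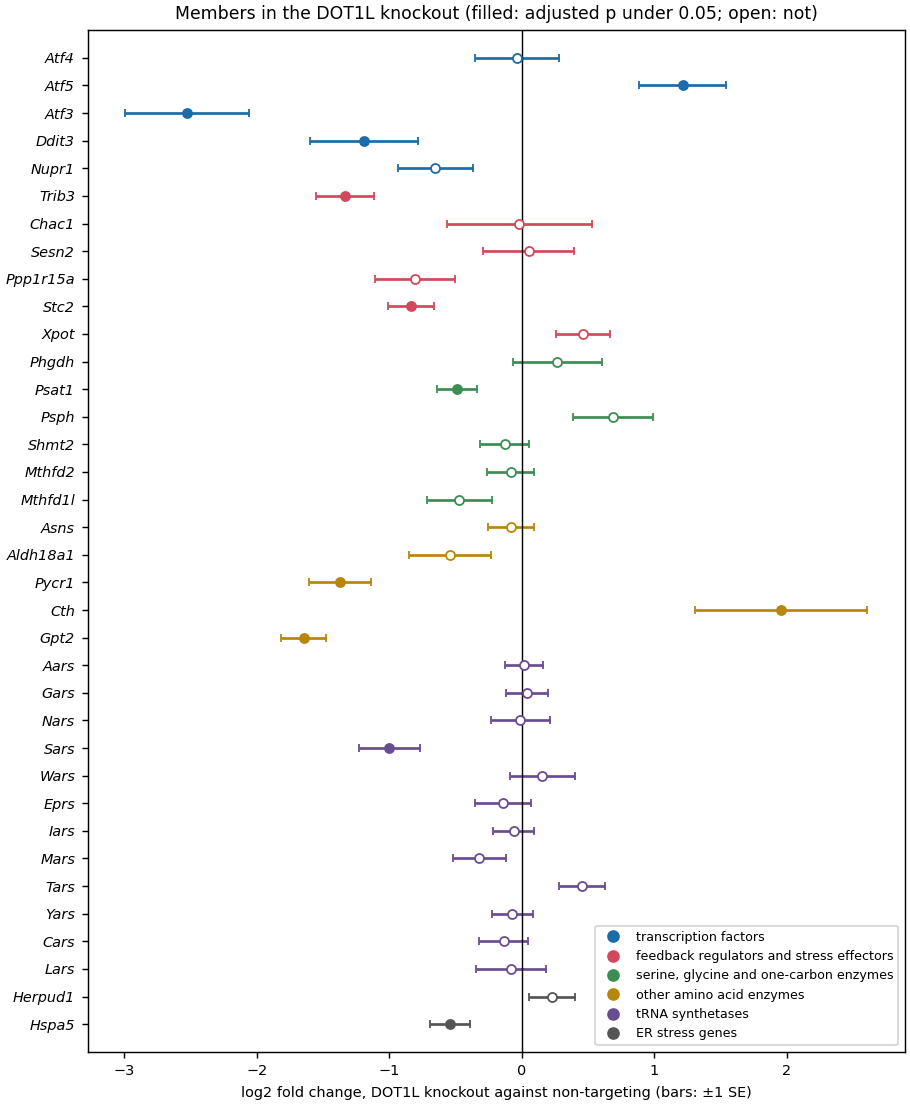
Log2 fold change of the 36 tested genes in the DOT1L knockout against the non-targeting guide, with bars of 1 standard error from edgeR, ordered by the genes' roles. Called genes run from -2.53 (Atf3) to 1.96 (Cth), while Atf4, Asns and most tRNA synthetases lie near 0.

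Over the whole set, 7 of the 36 genes had all 3 DOT1L libraries below all 21 other libraries, and 0 had them above. Over all genes tested, the shares were 5.39% and 9.09%, 14.5% in all. The 7 were Atf3, Trib3, Psat1, Pycr1, Gpt2, Stc2 and Hspa5.

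Other genes of the pathway, outside the 38, were counted by list. Among 13 genes for eIF2 kinases, eIF2B and their regulators, 1 rose and 0 fell in the DOT1L knockout, where 11.2% of all genes rose and 10.7% fell. It was Ppp1r15b, which encodes the constitutive eIF2 phosphatase subunit CReP (log2 fold change 0.58 ± 0.20, edgeR's adjusted p = 0.0354). The kinases Eif2ak1 (haem), Eif2ak3 (unfolded ER protein) and Eif2ak4 (amino acids) had 0.30, 0.40 and -0.33 and were not called. Of 10 amino acid transporters tested, 2 rose and 2 fell, beside the same shares of all genes. Slc38a2, which takes up small neutral amino acids, went from 196, 147 and 134.5 CPM in the controls to 269, 269 and 289 in the knockout (0.79 ± 0.18, edgeR's adjusted p = 0.0017). Slc1a4, a carrier of serine and alanine, went from 56.5, 53.8 and 41.6 to 20.4, 20.3 and 16.4 CPM (-1.42 ± 0.23, edgeR's adjusted p = 5.99e-05). Slc36a1 rose by 0.88 and Slc7a6 fell by 0.58 on the log2 scale, while the cystine and leucine carriers Slc7a11 and Slc7a5 had 0.12 and -0.02 and were not called.

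Of 16 further ATF4 targets tested, 2 rose and 3 fell in the DOT1L knockout, beside 11.2% and 10.7% of all genes. Jdp2, a bZIP repressor, rose from 17.3, 15.01 and 15.2 CPM to 53.9, 62.6 and 61.5 (log2 fold change 1.91 ± 0.26, edgeR's adjusted p = 6.15e-06). Cebpb, a C/EBP factor that is also a myeloid regulator, rose from 29.3, 21.3 and 64.2 CPM to 57.6, 101 and 151 with overlap of the groups (1.45 ± 0.43, adjusted p = 0.0161). Eif4ebp1, the translation repressor 4E-BP1, fell from 170.2, 262 and 232.5 CPM to 99.6, 98.8 and 88.4 (-1.21 ± 0.23, adjusted p = 0.000322). Ddit4, an mTORC1 inhibitor, fell by 1.55 ± 0.54 on the log2 scale (adjusted p = 0.0431). Fgf21, a stress-induced hormone, was called lower on 31 counts in the controls and 1 in the knockout, a ratio of 42.0 with a counting interval of 7.01 to 1710 that covers counting error only.

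Of 21 further genes of one-carbon and amino acid metabolism tested, 2 rose and 4 fell by edgeR, beside 11.2% and 10.7% of all genes, and 2 rose and 2 fell by DESeq2. Aldh1l2, the mitochondrial 10-formyltetrahydrofolate dehydrogenase, went from 9.48, 5.32 and 6.61 CPM to 0.743, 0.356 and 1.96 (log2 fold change -2.56 ± 0.42, edgeR's adjusted p = 7.65e-05). Glul, glutamine synthetase, went from 22.7, 20.6 and 23.3 to 12.6, 5.69 and 11.2 CPM (-1.16 ± 0.27, adjusted p = 0.00317). Prodh, which degrades proline and so runs against Pycr1, rose by 1.36 ± 0.35 (adjusted p = 0.00614), and Tyms, thymidylate synthase, rose by 0.57 ± 0.14 (adjusted p = 0.00497). Amt, of the glycine cleavage system, and Pcx, pyruvate carboxylase, fell by 1.84 and 1.20 on the log2 scale (edgeR's adjusted p = 0.0207 and 0.0499). Among 19 chaperones and sensors of the unfolded protein response, 1 fell, the ER stress sensor Ern1 (-1.06 ± 0.19, adjusted p = 0.000266). Of the 8 other cytosolic synthetases 0 were called by edgeR or DESeq2, and 0 had an unadjusted p under 0.05. Of the 16 mitochondrial synthetases tested, 0 were called by either tool and 1 had an unadjusted p under 0.05. For all genes, the share with an unadjusted p under 0.05 is not given here, so nothing is drawn from these unadjusted counts.

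The other knockouts were then set against DOT1L directly, which tests the difference itself. Genes called higher or lower relative to DOT1L numbered 11 and 1 of the 36 for MLLT10, where 10.9% and 12.6% of all genes were called, and 8 and 1 for the libraries labelled MLLT1 (8.49% and 11.1%). They numbered 11 and 1 for MLLT6 guide 1 (13.9% in each direction), and 12 and 2 for MLLT6 guide 2 (10.4% and 11.0%). These comparisons share the 3 DOT1L libraries. Atf3, Trib3, Psat1, Pycr1, Ppp1r15a, Gpt2, Stc2 and Hspa5 were higher than in DOT1L in each of the 4. The share of all genes higher in each of the 4 is not given here, so nothing is drawn from this agreement. For Gpt2, the log2 difference was 1.36 ± 0.15 in MLLT10 (edgeR's adjusted p = 2.99e-07), 1.07 ± 0.15 in MLLT1 (8.85e-06), 1.48 ± 0.17 in MLLT6 guide 1 (4.44e-07) and 1.69 ± 0.17 in MLLT6 guide 2 (6.94e-08). For Pycr1 the log2 differences were 1.604, 1.44, 1.92 and 1.77 in the same order, and for Trib3 1.35, 1.30, 1.91 and 1.70. Atf5, which rose in DOT1L, was not called different from DOT1L in any of them, with log2 differences of -0.46, -0.39, -0.53 and -0.64. Cth was called lower than in DOT1L for MLLT6 guide 1 (-1.94 ± 0.62, edgeR's adjusted p = 0.0212) and guide 2 (-1.92 ± 0.64, 0.0328).

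**Figure D4:**
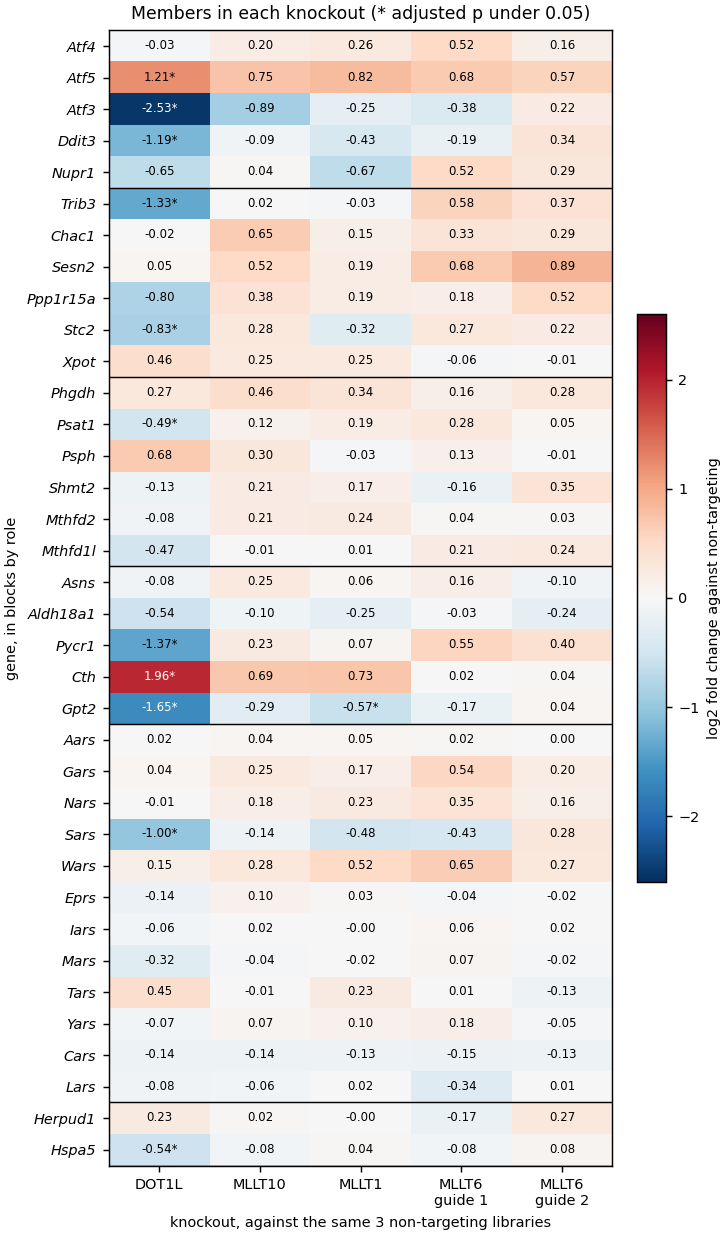
Log2 fold change against the non-targeting guide of the 36 tested genes (rows) in the 5 knockouts (columns), as colour and number, with an asterisk where edgeR's adjusted p was under 0.05. Asterisks stand on 11 genes for DOT1L and on Gpt2 for MLLT1.

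In the libraries labelled MLLT1, 1 of the 36 genes was called, Gpt2, which was lower; edgeR called 2.58% of all genes, 1.61% lower. Guide 1 libraries held 65.6, 67.2 and 60.4 CPM of Gpt2 and guide 2 libraries 47.0, 56.4 and 59.2, against 70.9, 93.2 and 99.9 in the controls. All 6 libraries lay below all 3 controls, and the log2 fold change was -0.57 ± 0.14 (edgeR's adjusted p = 0.0217). By guide it was -0.45 ± 0.16 for guide 1 (adjusted p = 0.202; 1.25% of all genes called) and -0.70 ± 0.16 for guide 2 (adjusted p = 0.0297; 1.22% called). The difference between the guides was 0.25 ± 0.16 and was not called (adjusted p = 1). The call was lost without control replicate 2 (adjusted p = 0.152), control replicate 3 (0.236), guide 1 replicate 3 (0.0521) or guide 2 replicate 1 (0.0606).

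Another 5 genes had an unadjusted p under 0.05 and were not called in the libraries labelled MLLT1. The share of all genes at that threshold is not given here, so nothing is drawn from this number. Atf5 had a log2 fold change of 0.82 ± 0.30 (edgeR's adjusted p = 0.159), which was called without control replicate 1 (1.31, adjusted p = 0.0223). Nupr1 had -0.67 ± 0.24 (adjusted p = 0.158), which was called without guide 1 replicate 3 (-0.87, adjusted p = 0.0402). Its levels were 5.38, 4.72 and 10.5 CPM with guide 1 and 10.5, 8.56 and 6.69 with guide 2, against 11.1, 14.4 and 10.498 in the controls, where guide and control libraries met near the same value. Sars had -0.48, Wars, the tryptophanyl synthetase, 0.52, and Stc2 -0.32. The median of the 36 was 0.05.

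For MLLT10, edgeR and DESeq2 called 0 of the 36 genes, while edgeR called 0.473% of all genes. Of the 36, 3 had an unadjusted p under 0.05: Atf5 (log2 fold change 0.75 ± 0.29, edgeR's adjusted p = 0.373), Atf3 (-0.89, adjusted p = 0.338) and Gpt2 (-0.29 ± 0.14, adjusted p = 0.515). How many of all genes had such a p is not given here, so nothing is drawn from this number. Guide 1 libraries held 76.1, 79.3 and 66.4 CPM of Gpt2 and guide 2 libraries 73.1, 73.1 and 64.4, which overlapped the controls. Set directly against MLLT1, where 1.49% of all genes were called higher, MLLT10 was higher in Nupr1 (0.71 ± 0.19, edgeR's adjusted p = 0.0478) and Stc2 (0.60 ± 0.12, adjusted p = 0.00407). Stc2 levels were 78.4, 77.9 and 69.7 CPM for MLLT10 guide 1, and 83.0, 77.1 and 75.8 for guide 2. With MLLT1 it was at 60.2, 48.5 and 45.0 CPM for guide 1 and at 49.1, 59.6 and 42.9 for guide 2, so the 6 libraries of each did not overlap.

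For MLLT6, edgeR and DESeq2 called 0 of the 36 genes with either guide. With guide 1, edgeR called 0% of all genes, and 1389 had an unadjusted p under 0.05; DESeq2 called 47. Of the 36, 5 had an unadjusted p under 0.05. Trib3 was at 55.5, 84.0 and 104 CPM, against 65.5, 56.0 and 42.4 in the controls (log2 fold change 0.58 ± 0.21, edgeR's adjusted p = 0.268). Its highest value, as for Pycr1 at 151 CPM, came from replicate 3, the library that stood apart. Pycr1 (0.55), Sesn2 (0.68), Gars (0.54) and Wars (0.65) were the others.

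With MLLT6 guide 2, edgeR called 0% of all genes, 286 had an unadjusted p under 0.05, and DESeq2 called 0. Of the 36, only Sesn2 had an unadjusted p under 0.05 (0.89 ± 0.33, edgeR's adjusted p = 1), at 8.10, 11.8 and 8.99 CPM against 6.18, 4.38 and 5.06 in the controls. These values did not overlap, but the share of all genes without overlap is not given here, so nothing is drawn from it. Between the 2 guides, 0 of the 36 and 0% of all genes were called by edgeR, 983 genes and 4 of the 36 had an unadjusted p under 0.05, and DESeq2 called 10 genes and 0 of the 36. The 4 were Shmt2 (-0.51), Gars (0.34), Sars (-0.72 ± 0.22, edgeR's adjusted p = 0.412) and Herpud1 (-0.44), given as guide 1 minus guide 2.

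Within groups, levels were set beside the replicate number. Replicate 1 was the highest of its group in 6 or more of the 8 groups for 5 of the 36 genes, beside 9.83% of all genes tested, and in 0 groups for 2 of the 36, beside 12.6%. The genes named next were chosen after their values were seen, and no test was made. Chac1 was highest in replicate 1 in 6 of the 8 groups, by a mean log2 deviation from the group mean of 0.67. For MLLT10, guide 1 libraries held 94.7, 25.2 and 31.8 CPM and guide 2 libraries 85.6, 22.1 and 23.4, so replicate 1 was far above the others in both. Atf4 was highest in replicate 1 in 5 of the 8 groups (mean deviation 0.29), and Lars, the leucyl synthetase, in 7 of the 8 (0.23). Wars was highest in replicate 1 in 6 of the 8 (0.24). Aldh18a1 and Pycr1 were highest there in 0 of the 8, with mean deviations of -0.22 and -0.17. The labels do not say what the replicate numbers share. Replicate 3 of MLLT6 guide 1 held 99.99 CPM of Lars against 306 and 249 in the other libraries of that guide, and 1006 CPM of Atf4 against 642 and 420.2. Its Phgdh deviated by -1.32 on the log2 scale.

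**Figure D5:**
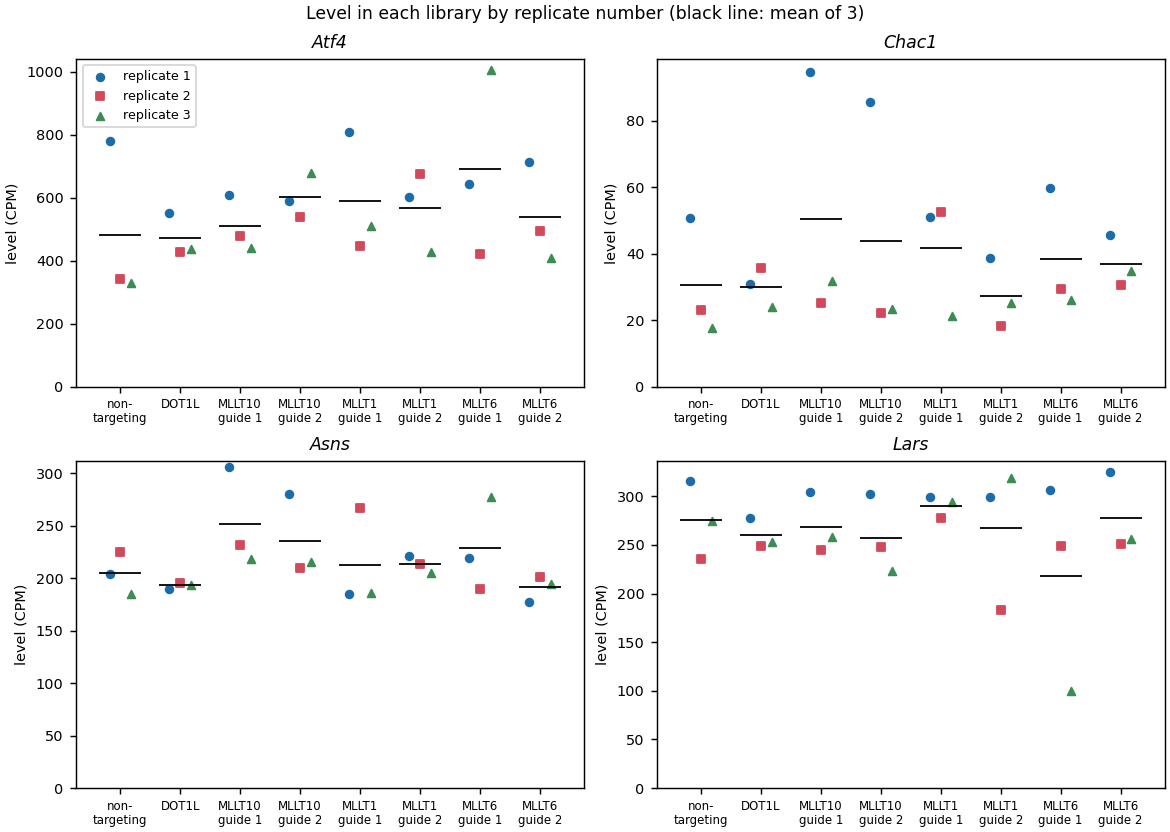
Level of Atf4, Chac1, Asns and Lars in CPM in each library of the 8 groups (horizontal axis), with 1 panel per gene. Marker shape and colour give the replicate number, and a black line marks the mean of the 3 libraries of a group. Chac1 is highest in replicate 1 in 6 of the 8 groups and Lars in 7 of the 8.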

How the data were processed

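RNA-seq counts per gene were deposited by the authors as 1 table of 24 libraries and 43629 Ensembl genes. Reads were processed with bcl2fastq, HISAT2, HTSeq and DESeq2 on mm10, per the submitters' processing notes; for versions, annotation and strand setting, nothing is stated in the labels. Symbols came from GENCODE M21; 42548 identifiers matched. Library totals were 2403044 to 7415397, which limits the precision of genes with few counts. The genes and lists were chosen with earlier results of these data known. Values in every library were to be given for called genes and for Atf4, Ddit3, Asns and Trib3, and up to 4 genes per further list, those of lowest adjusted p, were to be named. Other genes given by library, and Eif2ak1, Eif2ak3, Eif2ak4, Slc7a11, Slc7a5, Amt, Pcx and Ddit4, were added after their values were seen.

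The counts as deposited were fitted with edgeR 4.0.16 (R 4.3.3) for all 8 groups together, with TMM normalization, filterByExpr (10578 genes left), the quasi-likelihood test and Benjamini-Hochberg adjustment over all genes tested, called under 0.05. The standard error is the log2 fold change divided by the square root of F. Levels are TMM-normalized CPM. Alternatives were DESeq2 1.42.0, its size factors, no filter, compared groups only, a replicate block, each library left out and, chosen after seeing the data, both libraries that stood apart left out.

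Groups shared replicate numbers. Deviations of same-numbered libraries correlated above 0.1 in every pair for 6 of the 28 pairs of groups, among them the controls with MLLT6 guide 2 (0.321, 0.163 and 0.409), for which the replicate block called 0 of the 36 genes, as without it.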

Additional observations from a re-analysis of the deposited data

How the results depend on the processing

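In the DOT1L knockout the number of genes called ranged from 8 to 11 with 1 library left out, and was 11 without the filter on low counts, with DESeq2's size factors, with DESeq2's test and with the replicate block. It was 12 with the compared groups only, 15 without both libraries that stood apart and 16 with the block as well. Atf3, Trib3, Pycr1, Sars, Gpt2 and Stc2 were called in all 13 of these alternatives. The log2 fold change of Atf4, which was not called in any, changed sign to 0.028 with the replicate block and to 0.038 with the block and both libraries left out. With 1 library left out it ranged from -0.25 to 0.48, and was above 0 without control replicate 1 (0.48), DOT1L replicate 2 (0.033) or DOT1L replicate 3 (0.021). The cause was not tested.

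For MLLT1 the count moved from 1 to 0 without the filter on low counts and to 0 with the compared groups only, where the adjusted p of Gpt2 was 0.0698 and 0.119; it ranged from 0 to 2 with 1 library left out and stayed at 1 with the replicate block. For MLLT10, both MLLT6 guides and their comparison it was 0 in every alternative. Over all genes, calls moved from 273 to 457 for MLLT1 and from 50 to 79 for MLLT10 with the block, and from 50 to 104 for MLLT10 with DESeq2. Without the filter they moved to 463 for MLLT1, 192 for MLLT10, and 291, 19 and 67 for MLLT6 guide 1, guide 2 and their comparison. With the compared groups only they were 97 for MLLT1 and 28 for MLLT10. With both libraries left out they were 304 and 79, and 781 and 175 with the block too. With 1 library left out they reached 74 and 432 for MLLT1, 15 and 56 for MLLT10, and 0 and 31 for MLLT6 guide 1. Correlations of same-numbered libraries were not all above 0.1 for the controls with DOT1L (0.242, 0.06 and 0.134) or with MLLT6 guide 1 (0.085, -0.064 and -0.311). Whether weaker pairing was present was not tested. Tars was also called without control replicate 1 and without both libraries with the block (adjusted p = 0.0364). Depth limits Cth, which had 2, 3 and 8 counts in the controls.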
